A study of Rattus norvegicus with 6 samples.

Results

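Of the genes that build the Z-disc, the M-band and the titin filament of the sarcomere, 9 were followed in rat myocardium: Ttn, Myom1, Myom2, Tcap, Ldb3, Actn2, Myoz2, Synpo2l and Nexn. They were chosen by symbol, each matched 1 row of an expression table of 30452 rows, and all 9 passed the filter on low values, which left 10942 genes to test. RNA sequencing was done on total RNA of myocardial tissue from wild-type male rats, 3 in the sham group and 3 in the myocardial ischemia/reperfusion (MI/RI) group. For MI/RI a branch of the coronary arteries, the left anterior descending (LAD), was tied for 30 min and then released, and the heart was taken 6 h later. The sample titles give the same 30 min and 6 h for the sham group, whose operation was labelled as sham with no further detail. The labels do not say which region of the heart was sampled, nor that each library came from its own rat, so the p-values below measure the spread between these libraries. Values of single libraries are listed in the order of replicates 1, 2 and 3.

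The sarcomere is the contractile unit of the muscle cell, and it is bounded by Z-discs, where actin filaments of neighbouring sarcomeres are cross-linked by alpha-actinin. Titin is a giant protein that runs from the Z-disc to the M-band, where myomesins hold the myosin filaments together, and it gives heart muscle much of its passive stiffness. Telethonin caps the titin ends at the Z-disc, and many smaller Z-disc proteins bind alpha-actinin and link the lattice to signalling.

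The libraries held about 36800000 to 49800000 counted fragments, and the values are FPKM, fragments scaled by gene length and by the library total. The 13 mitochondrial mRNAs took 83.8% ± 3.26 of the summed FPKM in sham myocardium and 68.1% ± 5.43 after MI/RI (SD, n = 3 each), and the ranges did not overlap (exact permutation test, two-sided, p = 0.1, the smallest that 3 against 3 allows). FPKM are shares of a library and move with the rest of it, so each result is given below with scalings that treat this differently. Sham replicate 1 stood nearer to the MI/RI libraries than the other sham libraries did: its Spearman correlation with them across genes was 0.867 to 0.900, against 0.791 to 0.845 for sham replicates 2 and 3. Cardiomyocyte markers outside the sarcomere were present in all 6 libraries and summed to 1076 to 3908 FPKM in sham myocardium, with the highest value in replicate 1, and to 7467 to 11091 FPKM after MI/RI. In bulk tissue, fewer cells of a type and less RNA per cell cannot be told apart.

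In the FPKM as deposited, 7 of the 9 genes were higher in the MI/RI group (limma on log2(FPKM + 0.1), the scale of all fold changes below, Benjamini-Hochberg adjusted over all genes tested, threshold 0.05), where 25.5% of all genes tested were called higher. Actn2 and Synpo2l rose most, and Tcap, Myom1, Myoz2, Ldb3 and Myom2 also rose, whereas Ttn and Nexn did not pass the test. No member was called lower, against 7.36% of all genes tested. In 8 of the 9 genes every MI/RI value lay above every sham value, which held for 37.2% of all genes tested. Taken relative to cardiomyocyte markers, which rose as well, 5 of these 7 genes had a mean below that of the sham group. Myom1, Myoz2 and Myom2 were lower in every MI/RI library, as were 80.5% of all genes tested, whereas Ldb3 and Tcap overlapped between the groups. Tcap stood at only -0.078 on the log2 scale, and its sign changed with the library left out. Centred on these markers, the median gene stood at -1.70, below each of the 5. The values of each gene are given further on.

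**Figure D1:**
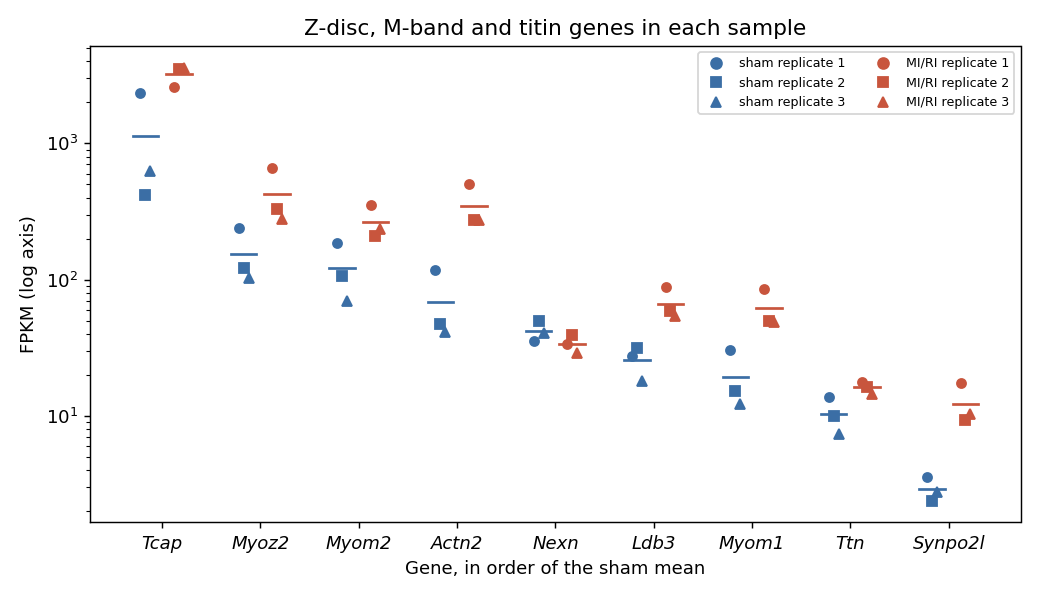
FPKM (log axis) of the 9 genes in each of the 3 sham and 3 MI/RI samples, in order of the sham mean; points are samples and short lines are group means. The MI/RI points lie above all sham points for every gene except Nexn, and sham replicate 1 (circles) is the highest sham sample for Tcap, Myoz2, Myom2, Actn2, Myom1, Ttn and Synpo2l.

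The 250 bases before the gene start were available in RefSeq (rat build GRCr8) for 7 of the 9 genes, all but Tcap and Myom2. They are shown for the pair that rose most, Actn2 and Synpo2l, for Myoz2, and for the pair that did not pass the test, Ttn and Nexn, so that they can be read beside the values. They lie at chr17:62834805-62835054 on the plus strand (Actn2), chr15:3684760-3685009 plus (Synpo2l), chr2:213852779-213853028 minus (Myoz2), chr3:82332111-82332360 minus (Ttn) and chr2:243878153-243878402 minus (Nexn), each 5′ to 3′ on the gene's strand. Capitals mark matches on either strand to the MEF2 site (Ttn, Myoz2, Synpo2l) or to the MCAT motif CATTCC (Nexn).
Actn2: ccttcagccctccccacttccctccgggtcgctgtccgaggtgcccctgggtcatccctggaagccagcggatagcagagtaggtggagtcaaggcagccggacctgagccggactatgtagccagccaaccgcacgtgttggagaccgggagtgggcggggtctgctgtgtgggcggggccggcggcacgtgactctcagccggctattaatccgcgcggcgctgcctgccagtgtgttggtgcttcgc
Synpo2l: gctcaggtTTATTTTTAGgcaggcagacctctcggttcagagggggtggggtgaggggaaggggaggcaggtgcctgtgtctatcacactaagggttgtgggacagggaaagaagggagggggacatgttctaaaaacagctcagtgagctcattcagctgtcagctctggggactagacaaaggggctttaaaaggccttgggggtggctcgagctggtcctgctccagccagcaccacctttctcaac
Myoz2: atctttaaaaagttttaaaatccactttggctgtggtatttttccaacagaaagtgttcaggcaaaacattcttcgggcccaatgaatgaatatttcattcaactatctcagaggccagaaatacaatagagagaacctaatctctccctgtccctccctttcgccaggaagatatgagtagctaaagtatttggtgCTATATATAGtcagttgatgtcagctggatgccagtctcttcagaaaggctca
Ttn: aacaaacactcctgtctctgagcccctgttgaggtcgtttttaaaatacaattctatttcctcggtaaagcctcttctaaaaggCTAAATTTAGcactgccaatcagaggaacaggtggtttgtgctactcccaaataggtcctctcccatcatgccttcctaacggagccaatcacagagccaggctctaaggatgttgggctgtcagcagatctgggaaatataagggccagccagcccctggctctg
Nexn: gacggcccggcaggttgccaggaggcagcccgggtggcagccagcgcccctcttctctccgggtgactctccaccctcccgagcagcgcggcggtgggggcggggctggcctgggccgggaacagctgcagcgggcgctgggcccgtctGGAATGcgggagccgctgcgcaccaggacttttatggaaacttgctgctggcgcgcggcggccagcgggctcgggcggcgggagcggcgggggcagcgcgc
A MEF2 match stood in 3 of the 7 sequences, Ttn, Myoz2 and Synpo2l, and in 2.96% of 33469 rat promoters of the same length. Ldb3 held the one match to the CArG box, the binding motif of serum response factor, which 1.497% of promoters held. MCAT, the motif of TEAD factors, matched in Nexn and in 12.1% of promoters, and the E-box CANNTG matched in 6 of the 7 and in 65.5%. The motifs AGATAA and TATAAA matched in 0 of the 7, against 10.3% and 12.9% of promoters. Base composition set Nexn and Actn2 apart: their sequences held 76.4% and 67.2% G and C, with 29 and 20 CG pairs, whereas Ttn held 48.4% with 3 CG pairs and the median promoter 51.2%. The MEF2 matches fell in genes that rose (Myoz2, Synpo2l) and in Ttn, which did not pass the test. No match to one motif overlapped a match to another in these sequences. The matches describe letters in a window and were tested for nothing else.

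Titin came first by role. Ttn (ENSRNOG00000069271), which encodes the spring and ruler of the sarcomere, had sham values of 13.8, 9.87 and 7.34 FPKM and MI/RI values of 17.6, 16.3 and 14.5 FPKM. The groups did not overlap, but sham replicate 1 came within a small distance of MI/RI replicate 3. The mean was 10.3 ± 3.26 FPKM against 16.1 ± 1.57 after MI/RI (SD, n = 3 each), a log2 fold change of 0.68 (SE 0.27, 95% interval 0.087 to 1.27) that did not pass the test (limma adjusted p = 0.0744). With the replicate number as a block the same change passed (limma adjusted p = 0.0339), as it did without sham replicate 1 (0.91, adjusted p = 0.0222). No label pairs the libraries by that number. Ttn is the longest of the genes by far, 113560 bases in the length behind its FPKM, and between 39948 and 73711 fragments fell on it in a library, so counting error was about 0.5% at most.

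At the Z-disc end of titin, Tcap (ENSRNOG00000068106) encodes telethonin, the cap that joins a pair of titin molecules. It had sham values of 2330, 416 and 628 FPKM and MI/RI values of 2600, 3499 and 3600 FPKM. The groups did not overlap, but sham replicate 1 was nearly as high as MI/RI replicate 1, and the sham SD was close to its mean (1125 ± 1049 FPKM against 3233 ± 550, n = 3 each). Its log2 fold change was 1.92 (SE 0.54, limma adjusted p = 0.0234), and 2.65 (adjusted p = 0.000552) without sham replicate 1. The call was lost without sham replicate 2 (1.40, adjusted p = 0.103), sham replicate 3 (1.70, adjusted p = 0.0823), MI/RI replicate 2 (1.85, adjusted p = 0.0504) or MI/RI replicate 3 (1.83, adjusted p = 0.0521).

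Actn2 (ENSRNOG00000017833) encodes alpha-actinin of heart and slow muscle, which cross-links actin at the Z-disc. Its sham values were 117, 46.7 and 41.2 FPKM, against 500, 273 and 274 FPKM after MI/RI. Every MI/RI value was far above the highest sham value, and replicate 1 was the highest in both groups. The mean rose from 68.3 ± 42.3 to 349 ± 131 FPKM (SD, n = 3 each), a log2 fold change of 2.46 (SE 0.41, limma adjusted p = 0.00405), and 1.44% of all genes tested had a larger one. The call held with any single library left out, at 2.17 to 2.93.

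Several alpha-actinin partners at the Z-disc rose as well. Ldb3 (ENSRNOG00000059166) encodes ZASP (cypher), a PDZ and LIM domain protein that stabilises the disc under load, and had sham values of 27.4, 31.4 and 17.95 FPKM and MI/RI values of 87.5, 58.4 and 53.7 FPKM. The groups were well separated, and here sham replicate 1 was not the highest of its group. The mean was 25.6 ± 6.89 against 66.5 ± 18.3 FPKM (SD, n = 3 each), a log2 fold change of 1.38 (SE 0.29, limma adjusted p = 0.00816). Myoz2 (ENSRNOG00000014815), which encodes calsarcin-1, a tether of calcineurin to alpha-actinin, had sham values of 240, 121 and 102 FPKM and MI/RI values of 659, 328 and 277 FPKM. MI/RI replicate 3 was not far above sham replicate 1, though the groups did not overlap. Its mean rose from 155 ± 74.9 to 421 ± 207 FPKM (SD, n = 3 each), with a log2 fold change of 1.44 (SE 0.41, limma adjusted p = 0.0231). The Myoz2 call was lost without sham replicate 2 (1.32, adjusted p = 0.0961), sham replicate 3 (1.20, adjusted p = 0.0872) or MI/RI replicate 1 (1.07, adjusted p = 0.0650), whereas that of Ldb3 held without any one library.

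Synpo2l (ENSRNOG00000008949) encodes CHAP, a Z-disc protein related to synaptopodin 2, and was the lowest of the 9 genes in both groups. It had sham values of 3.57, 2.38 and 2.77 FPKM and MI/RI values of 17.3, 9.23 and 10.3 FPKM. The groups lay far apart and the sham libraries were close together. The mean rose from 2.91 ± 0.608 to 12.3 ± 4.39 FPKM (SD, n = 3 each), and the log2 fold change was 2.004 (SE 0.29, limma adjusted p = 0.00291), the smallest adjusted p of the 9 genes. At its fewest, 567 fragments fell on Synpo2l in a library, a counting error of 4.2%, which is well under the spread between libraries, and its call held with any single library left out.

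Nexn was the Z-disc gene that did not pass the test. Nexn (ENSRNOG00000012512) encodes nexilin, an actin-binding protein of the Z-disc and of the junctions between the cell membrane and the calcium store. Its sham values were 35.5, 49.4 and 40.2 FPKM, against 33.4, 38.8 and 28.9 FPKM after MI/RI. The groups overlapped, and sham replicate 1 was the lowest of its group. The mean was 41.7 ± 7.06 against 33.7 ± 4.99 FPKM (SD, n = 3 each), a log2 fold change of -0.30 (SE 0.24, 95% interval -0.83 to 0.23) with a limma adjusted p of 0.350. The interval ends below the log2 fold change of every other member, though it overlaps the 95% interval of Ttn (0.087 to 1.27).

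At the M-band, both myomesins rose. Myom1 (ENSRNOG00000057701) encodes myomesin 1, the constitutive cross-linker of myosin filaments, and had sham values of 30.5, 15.2 and 12.3 FPKM and MI/RI values of 85.9, 49.3 and 48.8 FPKM. All MI/RI values were above the highest sham value, that of sham replicate 1. The mean was 19.3 ± 9.78 against 61.3 ± 21.3 FPKM (SD, n = 3 each), a log2 fold change of 1.72 (SE 0.37, limma adjusted p = 0.00839) that held without any one library. Myom2 (ENSRNOG00000011754), which encodes the M-protein of fast and adult cardiac fibres, had sham values of 186, 107 and 69.6 FPKM and MI/RI values of 350, 210 and 234 FPKM. MI/RI replicate 2 lay just above sham replicate 1. The mean rose from 121 ± 59.4 to 265 ± 74.7 FPKM (SD, n = 3 each), with a log2 fold change of 1.21 (SE 0.37, limma adjusted p = 0.0306). The Myom2 call was lost without sham replicate 2 (1.18, adjusted p = 0.101), sham replicate 3 (0.87, adjusted p = 0.117), MI/RI replicate 1 (0.99, adjusted p = 0.0915) or MI/RI replicate 3 (1.28, adjusted p = 0.0516).

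Because sham replicate 1 stood apart, the whole comparison was also made without it. The 8 genes with a positive log2 fold change were then all called higher, with values from 0.91 for Ttn to 2.93 for Actn2, and Nexn stayed uncalled at -0.41 (limma adjusted p = 0.204). Leaving out sham replicate 2 or sham replicate 3 instead left 4 genes called, Myom1, Ldb3, Actn2 and Synpo2l. With any 1 of the 6 libraries left out, between 4 and 8 of the 9 genes were called higher and none lower. Calls over all 10942 genes tested moved too, from 2790 higher with every library to 2557 without sham replicate 1. They fell to 1919 without sham replicate 2 and to 1528 without sham replicate 3. The genes called lower numbered 309 to 881 with 1 library left out.

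How far these genes rose depended on how the libraries were scaled. Over all genes tested, the log2 fold change had a median of 0.29 as deposited, 0.48 after rescaling to TPM, which brings each library to the same sum, -0.46 after rescaling to FPKM without the mitochondrial mRNAs and -0.02 after quantile normalization, while that of the 9 genes was 1.44, 1.64, 0.66 and 0.44. Without mitochondrial mRNAs, 3 members were called higher, Actn2 (1.67), Synpo2l (1.24) and Myom1 (0.94), against 7.25% of all genes tested, and Nexn was called lower (-1.09, limma adjusted p = 0.00944), against 26.1%. Ttn then had a log2 fold change of -0.10. After quantile normalization, Actn2 (1.42) and Synpo2l (1.57) were called higher, against 13.2% of all genes, and Nexn lower (-1.29), against 14.2%. Actn2 and Synpo2l kept their call under these 4 scalings, though not when centred on cardiomyocyte markers, and Nexn had a negative log2 fold change under all of them. Relative to the median of all genes in the same fit, Actn2 stood 2.17 higher as deposited, Ttn 0.39 higher and Nexn 0.59 lower on the log2 scale.

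**Figure D2:**
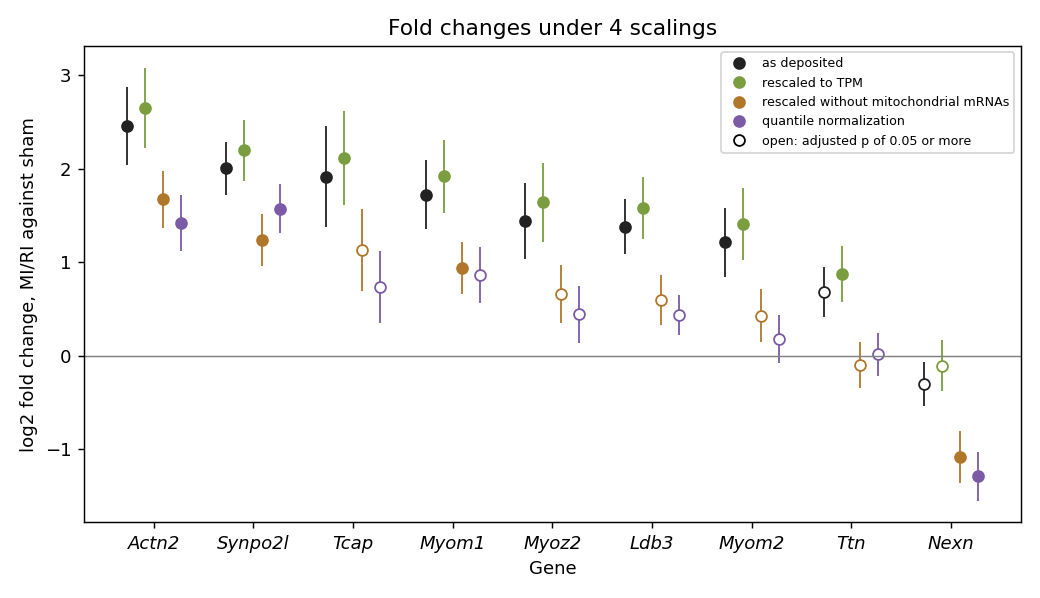
Log2 fold change (MI/RI against sham, y axis) of the 9 genes under 4 scalings; points are limma estimates, bars are 1 SE, and filled points have an adjusted p under 0.05 (n = 3 libraries in each group). Actn2 and Synpo2l are filled and above 0 under every scaling drawn, Ttn lies near 0 without mitochondrial mRNAs (-0.10), and Nexn is filled and below 0 in the last 2 scalings.

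Ratios between genes of the same library do not depend on a scaling factor of that library, and they set the members against each other. Against Actn2, 6 of the other 8 genes were lower in every MI/RI library than in every sham library, a pattern that 87.7% of all genes tested shared, since few genes rose as much as Actn2. The log2 ratio of Ttn to Actn2 was -3.07, -2.23 and -2.47 in the sham libraries, against -4.82, -4.06 and -4.23 after MI/RI. That is a difference of -1.78, or 0.292 of the sham ratio, with no overlap. Nexn differed most against Actn2, with a log2 ratio of -0.56 ± 1.01 in sham and -3.32 ± 0.55 in MI/RI libraries (SD, n = 3 each). Myom2 (-1.24), Ldb3 (-1.07), Myoz2 (-1.01) and Myom1 (-0.74) were lower against Actn2 as well, without overlap. Tcap and Synpo2l overlapped between the groups, with differences of -0.54 and -0.45 (exact permutation test, two-sided, p = 0.4 each). For each of the 6 ratios without overlap the exact permutation p was 0.1, the smallest possible with 3 against 3, and 0.133 after adjustment over the 8 ratios, so none could pass.

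**Figure D3:**
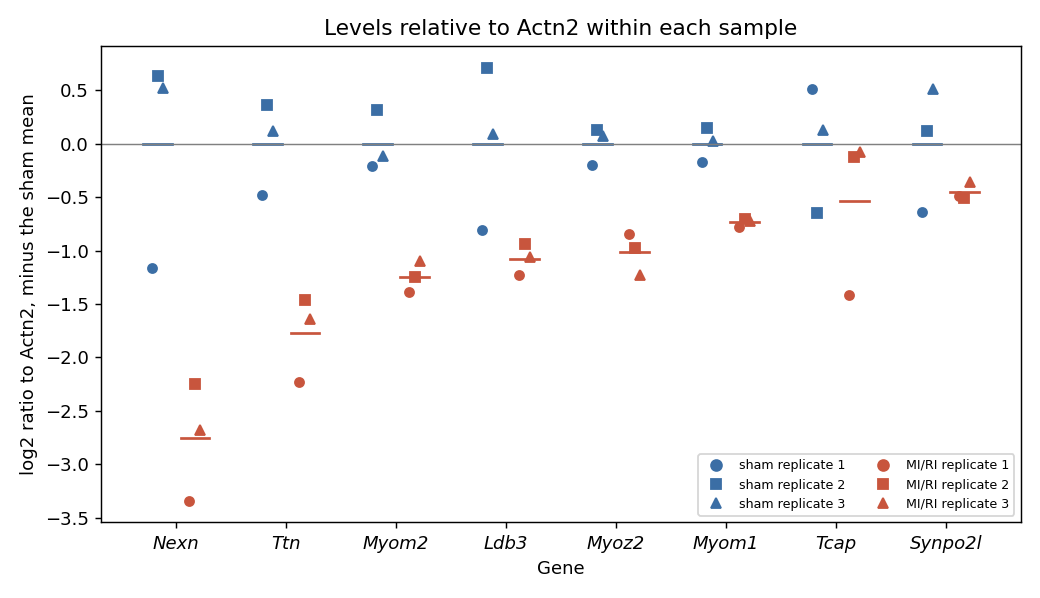
Log2 ratio of each gene to Actn2 in each sample, less the mean of the 3 sham samples (y axis); points are samples and short lines are group means. Nexn and Ttn lie furthest below the sham samples, at -2.76 and -1.78 on average, the MI/RI samples of Myom1 nearly coincide, and Tcap and Synpo2l overlap with the sham samples.

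Within the M-band, the ratio of the myomesins differed by less. The log2 ratio of Myom2 to Myom1 was 2.60, 2.80 and 2.49 in the sham libraries, against 2.03, 2.09 and 2.26 after MI/RI. Myom2 stayed the more abundant per length in every library, but its lead was smaller in every MI/RI library, by 0.51 on average (exact permutation test, two-sided, p = 0.1, adjusted p = 0.2 over the 2 pairs tested). The ratio of Tcap to its partner Ttn was 7.39, 5.38 and 6.40 in the sham libraries, against 7.20, 7.73 and 7.95 after MI/RI (log2). It overlapped, because sham replicate 1 lay above MI/RI replicate 1 (difference 1.24, exact permutation test, two-sided, p = 0.2).

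Against the mean of the cardiomyocyte markers outside the sarcomere, a reference from the same cell type, Actn2 was the one member that was higher in every MI/RI library, by 0.46 on the log2 scale, as were 0.914% of all genes tested. Ttn (-1.31), Nexn (-2.30), Myom2 (-0.78), Myoz2 (-0.55) and Myom1 (-0.27) were lower in every MI/RI library, as were 80.5% of all genes tested. Ldb3 (-0.61), Tcap (-0.078) and Synpo2l (0.0095) overlapped between the groups. Within the pairs of same-numbered libraries, Ldb3 was lower after MI/RI in all 3, with differences of -0.97 to -0.20, whereas the pairs of Tcap and Synpo2l went both ways. Such pairing is an assumption, since no label pairs these libraries. The markers themselves rose as deposited, with 8 of 9 tested called higher, against 25.5% of all genes tested. Their median log2 fold change was 2.20. The exact permutation p was 0.1 for each ratio without overlap and 0.15 after adjustment over the 9 ratios.

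In order of level, which FPKM allows between genes because it is per length, Tcap stood above all others in both groups. In the sham group Myoz2 (155 FPKM), Myom2 (121), Actn2 (68.3) and Nexn (41.7) followed, and each of these overlapped with the next in its range, up to Nexn. Ldb3 (25.6), Myom1 (19.3) and Ttn (10.3) formed a lower run whose neighbours also overlapped, and Synpo2l (2.91) was below them all. In the MI/RI group Actn2 (349) had passed Myom2 (265) in the order, though these overlapped. Ldb3 (66.5) and Myom1 (61.3), which overlapped, now stood above Nexn (33.7), and the ranges of Nexn and Myom1 were apart. Ttn (16.1) and Synpo2l (12.3) came last and overlapped. Nexn was the fifth in the sham group and the seventh in the MI/RI group.

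The 9 genes together made up 1.66%, 0.599% and 0.717% of the non-mitochondrial FPKM in the sham libraries, and 1.56%, 1.87% and 1.93% after MI/RI. Sham replicate 1 lay within the MI/RI range, so the groups overlapped (0.992% ± 0.582 against 1.79% ± 0.199, SD, n = 3 each, exact permutation test, two-sided, p = 0.2). Tcap supplied between 52.1% and 79.3% of that sum. Without Tcap the other 8 genes came to 0.293% ± 0.0679 and 0.479% ± 0.128 with no overlap (exact permutation test, two-sided, p = 0.1). Counted in fragments, which weight by length, Ttn took 26.0%, 39.2% and 34.5% of the fragments of the 9 genes in the sham libraries, and 19.6%, 21.6% and 19.4% after MI/RI. The Ttn share was lower in every MI/RI library.

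Other proteins of the Z-disc lattice moved in the same direction in the FPKM as deposited. Of 14 Z-disc and alpha-actinin partners, 12 were tested and 10 were called higher, none lower, with a median log2 fold change of 1.56 beside 0.29 for all genes tested. Flnc, which encodes filamin C, an actin cross-linker recruited to damaged Z-discs, had the largest rise (1.82 ± 0.313 to 17.7 ± 8.92 FPKM, log2 fold change 3.07, limma adjusted p = 0.0021). Csrp3, which encodes the muscle LIM protein that binds telethonin, rose by 2.39 (limma adjusted p = 0.00366). The smallest of the called rises were those of the actin capping subunits Capza2 (0.68) and Capzb (1.26). Without mitochondrial mRNAs, 5 of the 12 were higher and 1 was lower, against 7.25% and 26.1% of all genes tested. For this list and those below, the shares over all genes tested as deposited were 25.5% higher and 7.36% lower.

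Of 13 partners of titin and the M-band, 11 were tested, of which 8 were higher and 1 lower, with a median log2 fold change of 1.34. Ankrd2, which encodes an ankyrin repeat protein of the titin I-band, rose from 0.0783 ± 0.0408 to 1.29 ± 0.381 FPKM (log2 fold change 2.95, limma adjusted p = 0.00295), a low level at which the pseudocount of 0.1 shrinks the fold. Cryab, which encodes alphaB-crystallin, a small heat shock protein that binds titin, rose by 2.16, and Fhl2, which encodes a LIM protein of the titin spring, by 1.17. Trim63, which encodes MuRF1, a ubiquitin ligase that binds titin at the M-band, was the one called lower, from 24.3 ± 7.04 to 13.3 ± 3.42 FPKM (log2 fold change -0.85, limma adjusted p = 0.0472). Without mitochondrial mRNAs 5 of the 11 were higher and 2 lower, against 7.25% and 26.1% of all genes tested.

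All 8 chaperones of the sarcomere were called higher, with a median of 1.85, against 25.5% of all genes tested. Without mitochondrial mRNAs 5 of the 8 were higher, against 7.25%. Hspb7 (3.32) and Hspb8 (2.41), small heat shock proteins of the Z-disc and its quality control, had the largest log2 fold changes, and Dnajb6 (0.78) and Hspa8 (1.29), a co-chaperone and the constitutive Hsc70, the smallest. Of the 8 paralogs of the members, 6 were tested and 4 were higher, with a median of 0.95. These were Myom3 (2.73), a further myomesin, Synpo2 (1.69), the relative of Synpo2l, Actn4 (1.03), a non-muscle alpha-actinin, and Myoz3 (0.88). Myom3 (2.57 ± 1.67 FPKM) and Myoz3 (2.42 ± 0.468 FPKM) stayed far below Myom1, Myom2 and Myoz2 in the MI/RI group, whereas Synpo2 stood at about the level of Synpo2l, with 3.13 ± 0.924 FPKM in sham and 10.5 ± 3.999 FPKM in MI/RI libraries (SD, n = 3 each). Among 9 tested regulators of sarcomere genes, 4 were higher: Nkx2-5 (2.50) and Gata4 (1.13, just past the threshold), both cardiac transcription factors, Srf (2.08), the factor that binds the CArG box, and Rbm20 (1.18), the factor that splices titin. Without mitochondrial mRNAs 2 of the 6 paralogs were higher and 1 lower, and 2 of the 9 regulators were higher. Of all genes tested, 7.25% were higher and 26.1% lower in that scaling.

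**Figure D4:**
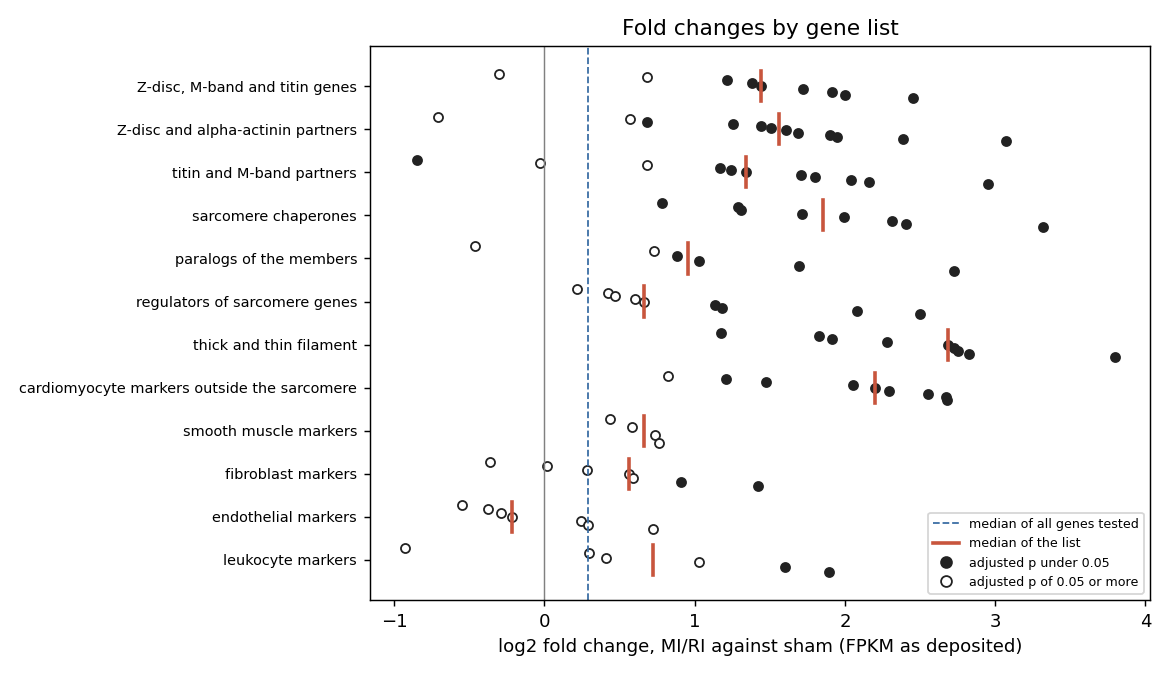
Log2 fold change (MI/RI against sham, FPKM as deposited, x axis) of each tested gene in 12 lists; filled points have a limma adjusted p under 0.05, red bars are list medians and the dashed line is the median of all genes tested (0.29). The median of the 9 genes is 1.44, those of the filament genes (2.68) and of the cardiomyocyte markers (2.20) lie above it, and those of the endothelial markers (-0.22) and fibroblast markers (0.57) below. With FPKM rescaled without mitochondrial mRNAs the medians of the smooth muscle and fibroblast markers and of the regulators turn from above 0 to below 0. The median of the endothelial markers, below 0 as deposited, lies further below 0 in that scaling.

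The genes of the thick and thin filaments, the neighbours of the Z-disc and the M-band, rose in 9 of 9 cases with a median of 2.68. Without mitochondrial mRNAs 7 of 9 were higher, against 7.25% of all genes tested. Markers of other cells are given beside the 25.5% of all genes tested that were called higher as deposited. The endothelial markers summed to 188 to 242 FPKM in sham and 185 to 218 FPKM in MI/RI libraries, with 0 of 7 called (1 higher with the replicate block), and the smooth muscle markers to 57.3 to 252 and 79.4 to 285 FPKM, with 0 of 4 called. Fibroblast markers had 2 of 7 called higher (420 to 581 against 605 to 669 FPKM) and leukocyte markers 2 of 6 (54.5 to 69.8 against 77.1 to 144 FPKM). Without mitochondrial mRNAs, 4 of 7 endothelial and 2 of 7 fibroblast markers were called lower, against 26.1% of all genes tested. Skeletal muscle markers share the sarcomere, and 5 of the 8 listed could be summed. They stayed between 0.607 and 4.07 FPKM in sum with Myh4 at 0 in every library (0 of 2 tested called, 1 lower with the block). Atrial myocyte markers summed to 2.52 to 6.84 FPKM in the sham group, to 6.09 and 8.38 in MI/RI replicates 1 and 2, and to 140 in MI/RI replicate 3 (1 of 3 called higher, 2 with the block). The one red blood cell marker in the table, Hba-a2, ranged from 583 to 1672 FPKM, both in the MI/RI group. Their part in the results on the 9 genes was not tested.

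Among the genes whose profile over the 6 libraries was most like the mean profile of the 9 were Optn, Map2k2, Pnkd and St3gal5, out of 3775 genes with a mean of at least 5 FPKM. Their root mean square distance to it was 0.0501 to 0.0728 on the log2 scale, and their log2 fold changes were 1.35 to 1.47. Between single members, Myom1 and Myoz2 lay 0.190 apart, and Myom2 was 0.251 from Myoz2. These distances cannot be set against those above, which are to a mean of 9 profiles and were picked as the smallest of 3775. Myom1 was the closest member to Tcap (0.610), Actn2 (0.380), Synpo2l (0.313) and Myoz2, and Myom2 the closest to Ttn (0.354) and Ldb3 (0.327). Nexn was the farthest member from 7 of the other 8 genes, and its own closest member was Ttn, at 0.607.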

How the data were processed

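RNA sequencing of rat myocardium compared 3 sham with 3 MI/RI libraries made with a stranded total RNA kit. The authors deposited FPKM values in 1 table of all 6 samples. The submitters' processing notes name STAR and HTSeq; the genome build, annotation and versions are not given in the sources used here. Rows were summed by symbol, and 7092 of 30452 rows without a symbol were kept under their own identifier. FPKM values were whole multiples of 1 fragment's worth, which gave back whole fragments for 10981 of 10981 rows with a mean of at least 0.5 FPKM (tolerance 0.02) and the library totals. Since the values are FPKM, the main test was limma 3.58.1 (R 4.3.3, trended variance) on log2(FPKM + 0.1) for genes with a mean of at least 0.5 FPKM, with Benjamini-Hochberg adjustment and a threshold of 0.05, which understates fold changes of low genes. The test was also run on simulated data with independent noise and no shift of whole libraries. That run cannot show how the test handles the shift in the share of mitochondrial mRNAs. Single values and ratios were compared by two-sided exact permutation tests (scipy 1.17.1).

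The 9 genes, the gene lists and the tests were chosen with earlier results of these data known. Named beside the 9 genes were the 2 highest and 2 lowest called genes of each related list and the 5 genes with the closest profile, of which 1 is not reported here; marker lists are given by their sums. Palld, Fhl1, Synpo, Pln, Flt1, Myh1, Atp2a1, Pvalb, Hba-a1, Hbb and Alas2 of these lists were not analysed here. Alternatives were other pseudocounts (1 and 0.01), no filter and a filter at 5 FPKM, 5 other scalings, a fit without the variance trend, the highest row per symbol, a replicate block, leaving out each library and, chosen after seeing the data, voom on the recovered fragments. The replicate block treated same-numbered sham and MI/RI libraries as pairs. The numbers come from the sample titles, and no label pairs these libraries. Their deviations from the group means correlated weakly across genes (0.203, 0.117 and 0.118). Correlations for other pairings are not given, so the pairing is an assumption. Fragment counts give counting error only.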

Additional observations from a re-analysis of the deposited data

How the results depend on the processing

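With 3 libraries in each group, a permutation test cannot go below 0.1, and the share of mitochondrial mRNAs moved with the groups. Most calls of the 9 genes changed with the scaling, and why they did was not tested. Other pseudocounts, the fit without the variance trend, the highest row per symbol and voom on the recovered fragments (an alternative chosen after seeing the data) changed no call of the 9 genes; the last called 2930 genes higher and 863 lower. The replicate block changed the call of Ttn (0.68, SE 0.22) and of no other member; it changed no count of calls on the related lists.

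Calls also moved with the filter: without one, Myom2 (1.21), Tcap (1.92) and Myoz2 (1.44) were not called, which left 4 members, and with at least 5 FPKM Ttn was (0.68); the number of genes tested and the variance estimates both changed, and the cause was not tested further. TPM added Ttn (0.88). Median centring left 4 members, losing Myom2 (0.96), Tcap (1.67) and Myoz2 (1.19). Without mitochondrial mRNAs 3 members were higher and 1 lower, Nexn (-1.09); Ttn turned to -0.10, and Myom2 (0.43), Tcap (1.13), Ldb3 (0.60) and Myoz2 (0.66) lost the call, with a member median of 0.66. Under quantile normalization 2 were higher and 1 lower, Nexn (-1.29), and Myom1 (0.86), Myom2 (0.18), Tcap (0.74), Ldb3 (0.43) and Myoz2 (0.44) lost the call, with a median of 0.44. Centred on the cardiomyocyte markers 0 were higher and 2 lower, Ttn (-1.31) and Nexn (-2.30); Myom1 (-0.27), Myom2 (-0.78), Tcap (-0.078), Ldb3 (-0.61) and Myoz2 (-0.55) turned negative, as did the median (-0.55), and Actn2 (0.46) and Synpo2l (0.0095) were not called; the spread of the markers enters every gene of that fit. Centring on the markers put the median gene at -1.70, below the member median of -0.55. Apart from quantile normalization, each scaling subtracts another library factor by construction. Quantile normalization replaces values by rank and can move genes unequally. Under it Actn2 stood 1.44 above the median of all genes tested, against 2.17 as deposited.

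Over all genes tested, 2790 were called higher and 805 lower; the counts were 793 and 2857 without mitochondrial mRNAs, 1441 and 1559 under quantile normalization, and 53 and 8509 centred on the markers, while the count lower was 166 with at least 5 FPKM, 505 in TPM and 1554 after median centring. The share of calls that were higher was 77.6% as deposited, 91.9% with at least 5 FPKM, 87.2% in TPM, 56.5% after median centring, 48.0% under quantile normalization, 21.7% without mitochondrial mRNAs and 0.619% centred on the markers. The counts of related genes called higher fell without mitochondrial mRNAs and centred on the markers to 5 and 1 (Z-disc partners), 5 and 0 (titin and M-band partners), 5 and 1 (chaperones, also 5 under quantile normalization), 2 and 0 (regulators) and 2 and 0 (paralogs, also 2 without a filter and 2 with at least 5 FPKM).

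Leaving out 1 library at a time, log2 fold changes ranged from 0.46 to 0.91 (Ttn), 0.87 to 1.58 (Myom2), 1.40 to 2.65 (Tcap) and 1.07 to 1.81 (Myoz2), the members called higher from 4 to 8, all genes called higher from 1528 to 2557 and lower from 309 to 881, and the paralogs called from 2 to 4. The lowest of these counts came without sham replicates 2 and 3. The log2 ratio to the cardiomyocyte markers ranged from -0.53 to 0.35 for Tcap and from -0.18 to 0.26 for Synpo2l, which was -0.22 with a pseudocount of 1; both changed sign among these settings.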
